A study of Mus musculus with 4 samples.

Results

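Cholesterol and fatty acid synthesis genes were described in iMOP cells, an immortalized wild-type line of mouse otic progenitors, the cells that give rise to the inner ear. The set was a fixed list of 29 genes, all of which were among the 49997 gene rows of the files. It held 18 enzymes of sterol synthesis, 6 genes of fatty acid synthesis and 5 genes of regulation and sterol transport around the SREBP transcription factors. The list was set by gene function, with earlier results of these data known. The study compared iMOP cells kept proliferating in DMEM/F12 with N21 supplement, carbenicillin and 20 ng/ml bFGF, a growth factor, with neurons derived from the same line. The neurons were kept in Neurobasal medium with N21, L-glutamine and 1 µM K03861, a compound that blocks the kinase CDK2. Each group had 2 libraries, numbered 1 and 2 in the labels. The sources used here give neither the time in culture nor whether libraries of the same number shared a culture or preparation. The data come from 1 cell line, and nothing in the labels says that the libraries of a group came from separate cultures, so p-values measure the spread between these samples, which may be technical.

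Cells make cholesterol from acetyl-CoA. The first enzymes build mevalonate and convert it to farnesyl diphosphate, the next ones join and close this into lanosterol, and the last ones trim lanosterol to cholesterol. When sterol in the endoplasmic reticulum is low, the escort protein SCAP carries SREBP to the Golgi, where it is cut and freed to activate genes of sterol and fatty acid synthesis. When sterol is high, INSIG holds SCAP back. Dividing cells need these lipids for new membrane, and growing neurons need them for neurites.

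Promoters are shown for 1 gene of each list, the member of highest mean level with a single window in RefSeq (build GRCm38.p6), since SREBP acts at such sites together with NF-Y and Sp1. Capitals mark 3 motifs, searched on both strands: TCACNCCAC, a form of the sterol regulatory element, CCAAT, bound by NF-Y, and GGGCGG, bound by Sp1. Each window runs from 250 bases before to 50 bases after the transcription start. The windows are chr13:119690101-119690400 on the plus strand for Hmgcs1, chr5:28071162-28071461 on the plus strand for Insig1 and chr11:100527951-100528250 on the minus strand for Acly.
Hmgcs1: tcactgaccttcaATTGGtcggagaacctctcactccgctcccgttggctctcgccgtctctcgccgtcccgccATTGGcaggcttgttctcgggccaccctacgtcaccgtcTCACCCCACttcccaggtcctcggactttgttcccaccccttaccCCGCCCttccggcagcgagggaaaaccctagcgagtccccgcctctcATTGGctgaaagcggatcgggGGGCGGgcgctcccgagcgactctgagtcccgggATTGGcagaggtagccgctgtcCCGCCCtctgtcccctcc
Insig1: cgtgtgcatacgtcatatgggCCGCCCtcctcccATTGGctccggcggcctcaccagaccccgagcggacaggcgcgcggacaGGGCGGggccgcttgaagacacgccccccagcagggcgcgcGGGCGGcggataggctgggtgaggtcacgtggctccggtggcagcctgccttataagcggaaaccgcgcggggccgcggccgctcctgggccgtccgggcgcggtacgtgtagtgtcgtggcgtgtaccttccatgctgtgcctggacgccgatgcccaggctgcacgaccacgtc
Acly: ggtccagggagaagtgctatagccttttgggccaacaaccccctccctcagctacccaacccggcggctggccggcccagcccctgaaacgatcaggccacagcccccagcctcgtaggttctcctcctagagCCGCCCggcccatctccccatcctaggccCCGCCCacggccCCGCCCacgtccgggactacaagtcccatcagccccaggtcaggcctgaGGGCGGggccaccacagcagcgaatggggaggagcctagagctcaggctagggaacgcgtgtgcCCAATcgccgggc
RefSeq windows were found for 23 of the 29 members. CCAAT or its reverse complement was present in 19 of these 23 genes, against 41.1% of 27025 genes. GGGCGG was also present in 19 of 23, against 38.2%. TCACNCCAC was found in 1 member, Hmgcs1, where it starts at position -137, and in 1.44% of all genes. A motif match describes the letters of the window and is not evidence of binding.

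Total counts ranged from 3150354 to 32913243 per library, and ribosomal RNA and rRNA-like genes took 88.2% to 98.1% of them. The counts outside those genes numbered 292302 in proliferating 1, 614465 in proliferating 2, 3241915 in neuron 1 and 617872 in neuron 2. All levels below are CPM, the counts of a gene scaled to a common total of these remaining counts with edgeR's TMM factors. With 3 counts as the limit for a gene at 0, its unscaled CPM could be as high as 10.3, 4.88, 0.925 and 4.86 in the same order, for counting error alone. Same-numbered libraries were more alike than libraries of 1 group. The Pearson correlation of log2 CPM, taken over 9009 genes that are not independent of one another, was 0.78 between the libraries numbered 1 and 0.82 between those numbered 2, against 0.40 within the proliferating and 0.50 within the neuron group. Each result is therefore given between groups and within each number.

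Several cell markers went against the labels. The summed level of 8 proliferation markers, among them Mki67 and Top2a, was 244 and 587 CPM in the proliferating libraries and 1862 and 4324 CPM in the neuron libraries, with 8 of 8 higher in the neuron library within both numbers. The sum of 10 neuronal markers was 2495 and 2861 CPM in the proliferating libraries and 1472 and 1523 CPM in the neuron libraries. Of 9 otic progenitor markers, Pax8 was at 0 in all 4 libraries and Pax2 in 3, and the sum was 3120 and 8526 CPM against 2205 and 2011 CPM. Oligodendrocyte lineage markers (8 genes) summed to 634 and 469.5 CPM against 173 and 93.3 CPM, with Sox10 and Mog at 0 in all 4 libraries. The sums were 1142 and 286 against 488 and 827 CPM for 5 astrocyte and supporting cell markers, and 153 and 440 against 148 and 91.2 CPM for 5 mesenchyme markers. Pou3f4 made up most of the mesenchyme sums, at 149.7 and 436.5 against 140.5 and 89.1 CPM. Col1a2 was at 0 in all 4 libraries, and Col1a1, Col3a1 and Dcn reached at most 4.26 CPM in any library. The 4 hair cell markers summed to 286 and 110 against 71.9 and 164 CPM, with Pou4f3 and Otof at 0 in all 4 libraries. The 5 immune cell markers summed to 13.0 and 0 against 5.85 and 0 CPM. The part of these markers in the results below was not tested, and fewer cells of a type and less RNA per cell cannot be told apart. The libraries are named by their labels throughout.

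The sterol step genes were at their highest in proliferating 2. Their 18 levels summed to 1298 CPM in proliferating 1, 5421 CPM in proliferating 2, 2379 CPM in neuron 1 and 1403 CPM in neuron 2. Proliferating 2 was highest and neuron 1 second, while the order of the lower 2 libraries depended on the scaling and on Hmgcs1. Without Hmgcs1 the sums were 969.5, 3369, 1709 and 750.3 CPM, and as unscaled shares of the counts outside ribosomal RNA the 18 genes took 0.137%, 0.481%, 0.276% and 0.110%, with neuron 2 lowest in both. Within number 1 the sum was 1.79-fold higher in the neuron library, and within number 2 it was 3.79-fold higher in the proliferating library, both relative to the median of all tested genes. On the log2 scale these ratios, neuron over proliferating, were 0.84 (95% exact counting interval 0.70 to 0.99) and -1.92 (-2.05 to -1.80). The intervals cover counting error alone and compare pairs of libraries, not conditions.

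**Figure D1:**
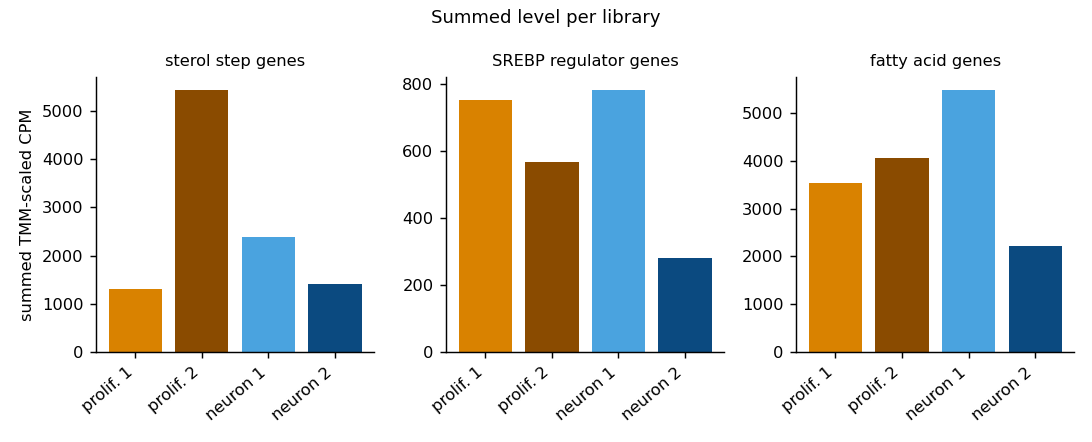
Summed TMM-scaled CPM (y axis, from 0) of the 18 sterol step genes, the 5 SREBP regulator genes and the 6 fatty acid genes in each of the 4 libraries. The sterol genes are highest in proliferating 2 (5421 CPM). The fatty acid genes are highest in neuron 1 (5470 CPM), a rank that rests on Fasn. Neuron 2 is the lowest library for regulators and fatty acid genes.

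Summed, the fatty acid genes had another order, which rested on Fasn. Their 6 levels summed to 3530, 4062, 5470 and 2220 CPM in proliferating 1, proliferating 2, neuron 1 and neuron 2, so that the neuron libraries were the highest and the lowest. Fasn alone had 927, 196, 1702 and 110 CPM in the same order, and without it proliferating 2 would be slightly above neuron 1. The log2 ratio of the sums was 0.60 (counting interval 0.51 to 0.69) within number 1 and -0.85 (-0.95 to -0.74) within number 2. The 5 regulators summed to 752, 567, 781 and 282 CPM, with log2 ratios of 0.02 (-0.17 to 0.22) and -0.98 (-1.28 to -0.69). The interval of the regulators thus included 0 within number 1, and their sum was 1.97-fold higher in the proliferating library within number 2.

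None of these genes passed the test between groups. Of the 29 members, 26 passed the count filter. Mvk, Tm7sf2 and Ebp did not. With the group as the single term, the quasi-likelihood test of edgeR called 0 of the 26, against 0% of 9009 genes, and 0 of the 26 had an unadjusted p under 0.05, against 97 of all tested genes. DESeq2 and limma voom also called 0 genes, with 190 and 81 genes under the same unadjusted p. A model that adds the library number as a factor called 0 of the 26 as well, where 0.644% of all genes were called higher and 0.322% lower in the neuron libraries. Log2 fold changes, neuron over proliferating, ran from -1.92 for Msmo1 (SE 1.16) to 0.86 for Elovl6 (SE 1.10), with adjusted p = 0.9996 in edgeR for both. The median was -0.38 for 15 tested sterol genes, 0.20 for the 6 fatty acid genes and 0.04 for the 5 regulators, beside -0.03 for all tested genes. The sterol median turned positive with the deposited RPKM values in limma, at 0.62 with a pseudocount of 0.1 and 0.46 with 1. On these scales the median of all tested genes was 0.81 and 0.34. The sterol median was also positive without proliferating 2 (0.52) and without neuron 2 (0.17). For a single gene, an exact permutation test of 2 against 2 libraries cannot go below a two-sided p of 0.333.

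Within the numbers most of the genes had ratios of opposite sign. Log2 ratios within a number are differences of log2 CPM (prior count 2), less the median over the tested genes. Of the 15 tested sterol genes, 13 were above 0 within number 1 and 14 were below 0 within number 2, and 13 did both. Counting the 3 members that did not pass the filter, 16 of 18 did both. All 6 fatty acid genes were above 0 within number 1 and 4 of 6 were below 0 within number 2. For the regulators these counts were 4 of 5 and 4 of 5, with counting intervals above 0 for 1 and below 0 for 2. The first count included Scap at 0.01 and Srebf1 at 0.07. In all, 20 of 26 tested members were above 0 within number 1 and below 0 within number 2, a pattern seen in 22.6% of all tested genes. Medians of differing sign were already known from these data when the genes were taken up. The count is therefore a description and not independent support. The median ratios in numbers 1 and 2 were 0.76 and -1.72 for the sterol genes, 0.95 and -1.05 for the fatty acid genes and 0.07 and -0.88 for the regulators. With 1 library per group within a number, the difference between the numbers leaves no residual degree of freedom and was not tested. For 12 of the 29 members the counting intervals lay above 0 within number 1 and below 0 within number 2. These were 8 sterol genes, 4 fatty acid genes and 0 regulators.

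**Figure D2:**
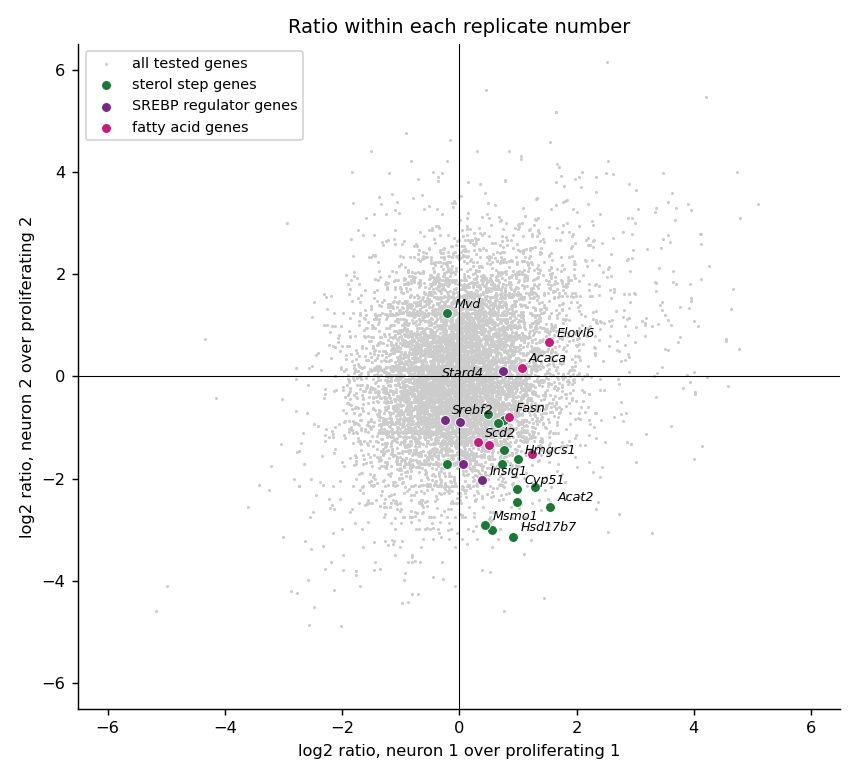
Log2 ratio of neuron 1 over proliferating 1 (x axis) against neuron 2 over proliferating 2 (y axis) for all 9009 tested genes (grey) and the 26 tested members (coloured by list), less the median over the tested genes. Most members (20 of 26) lie at the lower right, and Elovl6, Acaca and Stard4 lie in the upper right.

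The first sterol enzymes split by level. Hmgcs1, which makes HMG-CoA, was the most abundant sterol gene per unit of length in every library (chromosome 13, 119690379 to 119708260 in mm10). Its levels were 329 CPM in proliferating 1, 2052 CPM in proliferating 2, 669.8 CPM in neuron 1 and 653 CPM in neuron 2. The neuron libraries were alike, and the proliferating ones lay below and above them. Its log2 ratio was 0.99 within number 1 and -1.62 within number 2, and its log2 fold change between groups was -0.85 (SE 1.19, with an edgeR adjusted p of 0.9996). Idi1, the isomerase that makes dimethylallyl diphosphate, had 22.8, 161, 40.7 and 87.1 CPM, and its neuron libraries also lay between the proliferating ones. The thiolase gene Acat2, at the entry to the pathway, had 19.5, 20.2, 61.7 and 2.07 CPM, and Fdps, the farnesyl diphosphate synthase, had 101, 53.2, 205 and 8.29 CPM. Both were highest in neuron 1 and lowest in neuron 2. Acat2 had the largest ratio within number 1 among the tested sterol genes, at 1.55, but on 6 counts in proliferating 1, and its ratio of -2.55 within number 2 rested on 11 counts and 1 count.

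The mevalonate kinase Mvk, the phosphomevalonate kinase Pmvk and the decarboxylase Mvd were near the limit of detection in the libraries numbered 2. Mvk had 2 counts in proliferating 2 and 0 in neuron 2, and Pmvk had the same counts. Mvd (42.3, 0, 37.3 and 2.07 CPM) had 0 counts and 1 count, so its ratio of 1.24 within number 2, the highest among the tested sterol genes, says nothing on direction. In the libraries numbered 1 the same genes were present, with 13.0 and 40.7 CPM for Mvk, 29.3 and 25.8 CPM for Pmvk and 42.3 and 37.3 CPM for Mvd.

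The genes from farnesyl diphosphate to lanosterol were all highest in proliferating 2. Fdft1, the squalene synthase, had 48.8, 158, 125 and 33.2 CPM in proliferating 1, proliferating 2, neuron 1 and neuron 2. Squalene epoxidase, encoded by Sqle and rate-limiting in this branch, had 143, 312, 249 and 112 CPM. Lss, the lanosterol synthase, had 97.6, 281, 147 and 33.2 CPM. In each of these 3 genes neuron 2 was lowest and neuron 1 second highest, so the groups overlapped. Sqle had a log2 fold change of -0.33 (SE 1.00, adjusted p = 0.9996 in edgeR), made up of 0.76 within number 1 and -1.44 within number 2.

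Past lanosterol, proliferating 2 stood further apart from the other libraries. Cyp51, the lanosterol demethylase (chromosome 5, 4081145 to 4104746), had 124 CPM in proliferating 1, 934 CPM in proliferating 2, 253 CPM in neuron 1 and 197 CPM in neuron 2. Msmo1, a methylsterol oxidase (chromosome 8, 64718139 to 64733792), had 84.6, 708, 118 and 91.2 CPM. Hsd17b7, a ketosterol reductase, had 45.6, 365, 89.4 and 39.4 CPM. In each of these 3 genes proliferating 2 was far above the other 3 libraries, which reached at most 253 CPM for Cyp51, 118 CPM for Msmo1 and 89.4 CPM for Hsd17b7. Hsd17b7 had the lowest ratio within number 2 of all members, at -3.14, and a ratio of 0.92 within number 1. Nsdhl, a sterol dehydrogenase, had 48.8, 213, 83.3 and 62.2 CPM, and the desaturase gene Sc5d had 55.3, 121, 90.2 and 62.2 CPM, both in the library order of Cyp51 with a smaller spread. Between groups, Cyp51 had a log2 fold change of -1.24 (SE 1.15, with an edgeR adjusted p of 0.9996).

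Dhcr7, a reductase of the last step, differed from its neighbours. It had 78.1, 25.7, 112 and 14.5 CPM, so both libraries numbered 1 were above both numbered 2. Tm7sf2, a sterol reductase that did not pass the count filter, had 13.0, 3.67, 15.2 and 0 CPM. It rested on 4, 2, 57 and 0 counts, so a split like that of Dhcr7 was not resolved in the proliferating libraries. The isomerase gene Ebp was low throughout, at 3.25, 7.34, 16.0 and 6.22 CPM, on 1, 4, 60 and 3 counts.

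**Figure D3:**
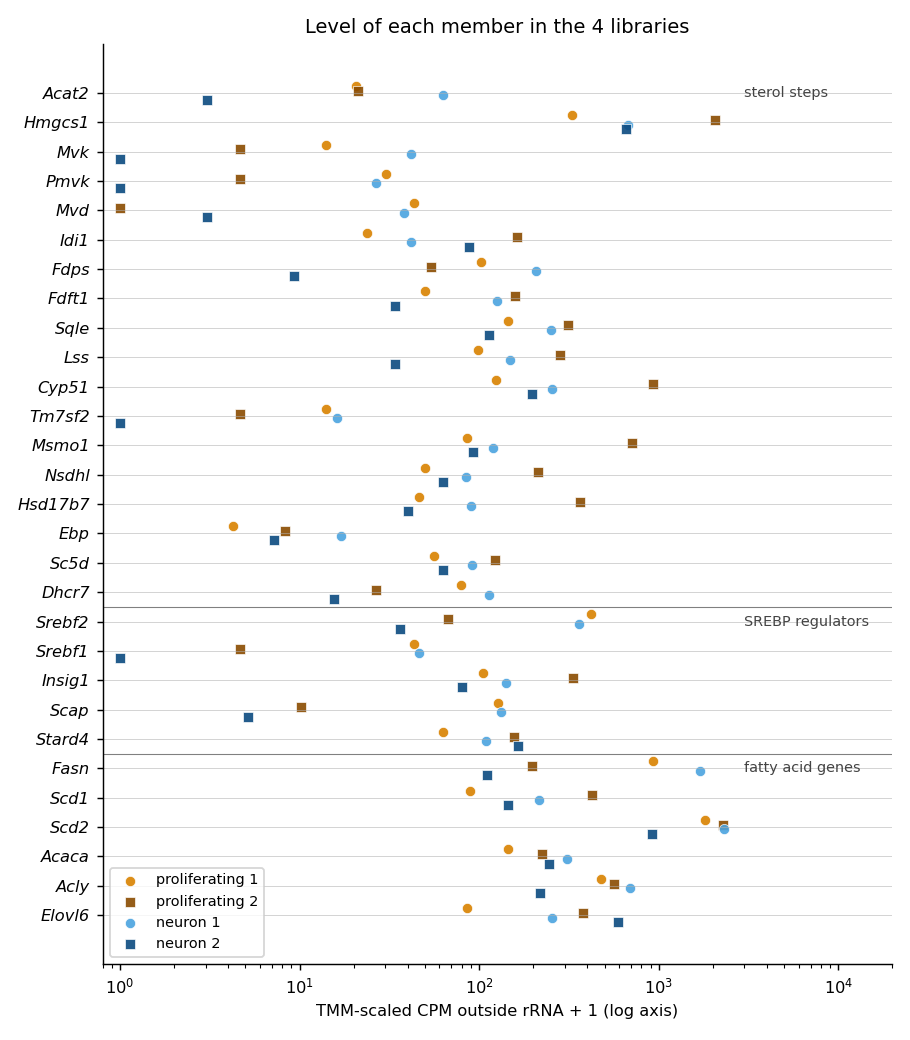
TMM-scaled CPM plus 1 (log x axis) of each of the 29 members in the 4 libraries, with circles for libraries numbered 1 and squares for those numbered 2, offset slightly in height. Proliferating 2 is the highest library for 10 of 18 sterol genes, and Srebf2, Scap, Srebf1 and Fasn are among the genes that have both circles to the right of both squares.

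Among the regulators, the genes of the SREBP machinery differed by number rather than by group. Srebf2, which encodes the SREBP that mainly drives sterol genes (chromosome 15, 82147181 to 82205379), had 416 CPM in proliferating 1, 66.0 CPM in proliferating 2, 357 CPM in neuron 1 and 35.2 CPM in neuron 2. Scap, the escort, had 127, 9.17, 131 and 4.15 CPM, and Srebf1, the SREBP of fatty acid genes, had 42.3, 3.67, 45.5 and 0 CPM. In all 3, the libraries numbered 1 were alike and far above those numbered 2. The log2 ratio of Srebf2 was -0.25 within number 1 and -0.85 within number 2, and its fold change between groups was -0.28 (SE 1.24, adjusted p = 0.9996 in edgeR). In the libraries numbered 2, Scap had 5 counts and 2 counts and Srebf1 had 2 and 0, so no change of these genes was detectable there.

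Insig1, which retains SCAP and is itself an SREBP target, had its highest level in proliferating 2, as most sterol enzymes did. It had 104, 332, 140 and 78.8 CPM, with log2 ratios of 0.39 within number 1 and -2.03 within number 2, the lowest among the regulators. Stard4, a carrier that moves sterol between membranes, had 61.8, 156, 108 and 164 CPM. Its ratio was 0.75 within number 1 and 0.10 within number 2 (counting interval -0.36 to 0.56), so its interval included 0 within number 2, where 12 sterol genes had intervals below 0. Neither gene passed the test, with log2 fold changes of -0.99 for Insig1 (SE 1.01) and 0.31 for Stard4 (SE 0.98).

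Scd2, a desaturase of saturated fatty acids, was the most abundant member in each library on the CPM scale (chromosome 19, 44293674 to 44306864). It had 1809 CPM in proliferating 1, 2281 CPM in proliferating 2, 2302 CPM in neuron 1 and 916 CPM in neuron 2, so neuron 2 stood below the other 3. Its paralog Scd1 had 87.8, 422, 215 and 143 CPM, an order like that of Cyp51. Reads shared by these paralogs could have been counted for either, since the setting was not given. Per kilobase of length, Scd2 was first and Hmgcs1 second among the members in neuron 1 (422 and 182 CPM per kilobase), while Hmgcs1 was first and Scd2 second in proliferating 2 (558 and 418) and in neuron 2 (178 and 168).

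Fasn, the fatty acid synthase (chromosome 11, 120805846 to 120824547), had 927, 196, 1702 and 110 CPM, with both libraries numbered 1 above both numbered 2. Within each number the order of the groups differed, with ratios of 0.84 (counting interval 0.67 to 1.02) and -0.80 (-1.31 to -0.32). Acly, which makes cytosolic acetyl-CoA, had 478, 565, 692 and 218 CPM, with neuron 2 lowest. The fold changes between groups were 0.69 for Fasn (SE 1.34), -0.20 for Acly (SE 1.07) and -0.35 for Scd2 (SE 1.19) on the log2 scale, none past the threshold.

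Acaca and Elovl6 were the fatty acid genes that were higher in the neuron library within both numbers, a pattern of 27.4% of all tested genes. Acaca, the carboxylase that makes malonyl-CoA (chromosome 11, 84129672 to 84401651), had 143 and 222 CPM in the proliferating libraries and 308 and 245 CPM in the neuron libraries. It was the 1 member whose groups did not overlap, with the neuron libraries higher, as in 9.41% of all tested genes. No member had non-overlapping groups with the neuron libraries lower, against 8.5% of all tested genes. The log2 fold change of Acaca was 0.60 (SE 0.97, adjusted p = 0.9996 in edgeR). Its ratios were 1.06 within number 1 (counting interval 0.64 to 1.54) and 0.17 within number 2 (-0.21 to 0.54). The interval of Acaca thus included 0 within number 2. Elovl6, the elongase of long-chain saturated fatty acids (chromosome 3, 129532355 to 129638495), had 84.6 and 376 CPM in the proliferating libraries and 253 and 589 CPM in the neuron libraries, so the groups overlapped. Its ratios were 1.53 within number 1 (counting interval 0.99 to 2.17) and 0.67 within number 2 (0.41 to 0.94).

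The difference in level between the numbers followed the GC content of the members. GC content of the longest transcript ranged from 41.9% for Idi1 to 59.1% for Scap. The 13 members with at least 50% GC were lower in the libraries numbered 2, with a median log2 difference of -2.96 (range -4.11 to -0.10), while the 16 members under 50% had a median of 0.83 (-2.04 to 1.91). Across the 29 members the Pearson correlation of GC content with this difference was -0.93 (Spearman -0.93), and it was -0.77 across 8655 tested genes. These points share the 4 libraries and are a description. GC content was less closely related to the ratios within the numbers, with Pearson correlations across the 26 tested members of -0.61 within number 1 and 0.20 within number 2. After a GC correction in each library, the median ratios in numbers 1 and 2 were 0.66 and -1.96 for the sterol genes, 1.12 and -0.59 for the fatty acid genes and 0.40 and -0.39 for the regulators, so the medians kept opposite signs.

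**Figure D4:**
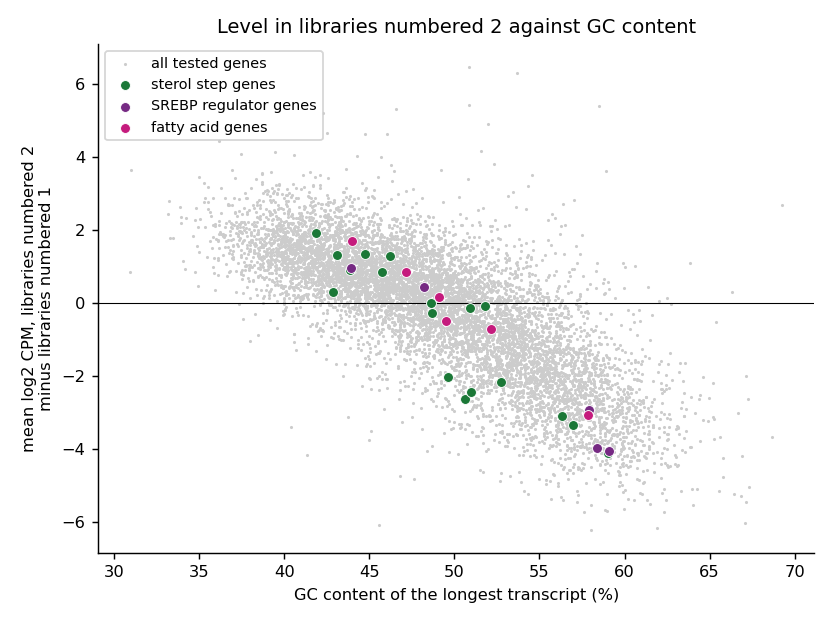
Mean log2 CPM of the libraries numbered 2 minus that of the libraries numbered 1 (y axis) against the GC content of the longest transcript (x axis, %), for tested genes (grey) and the 29 members (coloured by list). Members with higher GC content lie lower, from 1.91 for Idi1 to -4.11 for Mvd.

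Other genes of the pathway, from lists set by function, did not share the pattern throughout. Of 8 tested genes among 10 further sterol and isoprenoid genes, 3 were above 0 within number 1 and below 0 within number 2, 0 were called, and the medians were 0.66 and 0.31. Of 11 tested genes among 13 of SREBP processing, sterol uptake and decay of sterol enzymes, 2 had that pattern and 5 were below 0 in both numbers, with medians of -0.20 and -0.37 and 0 called. In this list Mbtps1, the protease that cuts SREBP first, had 179, 105, 118 and 97.4 CPM in proliferating 1, proliferating 2, neuron 1 and neuron 2. The ubiquitin ligase gene Rnf145 had 172, 71.5, 140.2 and 53.9 CPM. Both genes were lowest in neuron 2.

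Sterol export, storage and LXR genes had medians of -0.71 within number 1 and 0.23 within number 2 over 6 tested genes of 11. These signs were the reverse of those of the sterol enzymes. Abca1 was among 3 genes below 0 in the first and above 0 in the second, a pattern of 2038 of 9009 tested genes. Besides Abca1, these genes had few counts within number 2, 4 against 4 and 1 against 0, and say nothing on direction there. For 1 gene of the list the counting interval lay above 0 within number 2. Abca1, a cholesterol exporter and LXR target, had 559.6, 34.8, 369 and 415 CPM. Proliferating 2, the library with the most sterol enzyme RNA, was the lowest for Abca1, on 19 counts, and the ratios were -0.63 and 3.54. Soat1, which esterifies cholesterol, had 65.1, 121, 99.0 and 145 CPM, and Npc2, a lysosomal sterol carrier, had 260.3, 69.7, 159.7 and 35.2 CPM. None of the list was called, and Abca1 had a log2 fold change of 0.40 between groups.

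Further fatty acid genes (21 tested of 26) had medians of 0.15 and -0.44, with 8 of the 21 above 0 within number 1 and below 0 within number 2 and 0 called. Elovl5, an elongase of polyunsaturated fatty acids, had 97.6, 382, 116 and 276 CPM. The desaturase genes Fads2 and Fads1 had 439, 53.2, 478 and 85.0 CPM and 351, 82.5, 317 and 82.9 CPM. Both differed between the numbers and little between the groups, with ratios of 0.09 and 0.69 for Fads2 and -0.18 and 0.03 for Fads1.

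**Figure D5:**
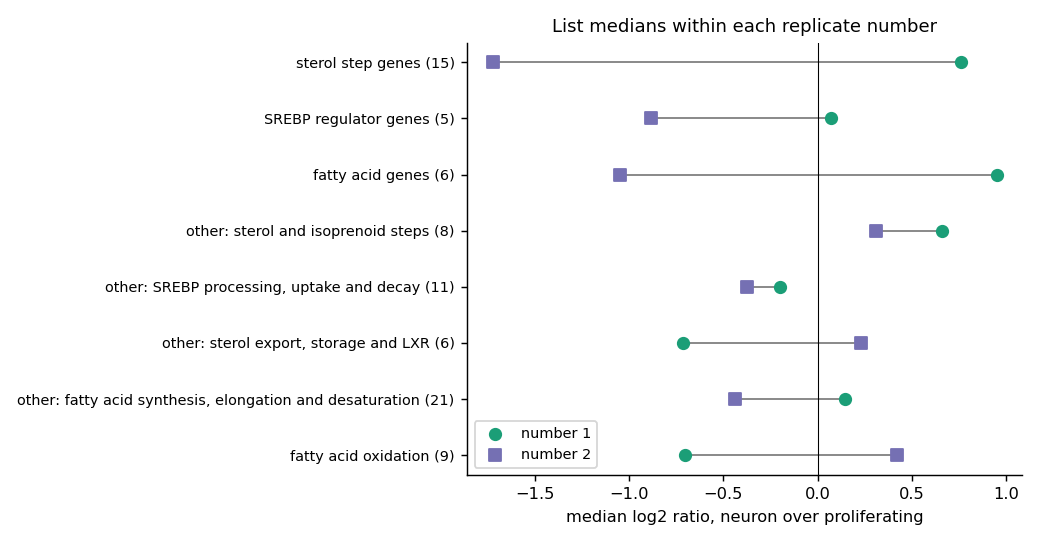
Median log2 ratio of neuron over proliferating (x axis) within number 1 (circles) and number 2 (squares) for the 3 member lists, 4 lists of other pathway genes and the fatty acid oxidation genes, with the number of tested genes in brackets. The sterol genes have the widest gap, from 0.76 to -1.72, and the export and oxidation lists have the opposite order of signs.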

How the data were processed

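The authors deposited raw counts per gene and RPKM values, one file of each per library. Per the submitters' processing notes, HISAT2, SAMtools, featureCounts and DESeq2 were used with build mm10. Versions, settings, annotation and the strand setting are not given in the sources used here. Reads from overlapping or antisense genes therefore cannot be told apart. Per the labels' protocols, 500 ng of DNase-treated RNA was depleted of ribosomal RNA and made into stranded libraries. The deposited RPKM values divide counts by gene length and by library totals that include ribosomal RNA.

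Before library totals were taken, 7 genes of ribosomal RNA or with rRNA-like reads were removed (mt-Rnr1, mt-Rnr2, Lars2, Rn18s-rs5, Gm15564, Mir6236 and AY036118). Groups were compared on the raw counts with edgeR 4.0.16 in R 4.3.3 (TMM scaling, filterByExpr, quasi-likelihood test, Benjamini-Hochberg adjustment over 9009 genes, threshold 0.05). The SE is the absolute log2 fold change over the square root of F. DESeq2 1.42.0 and limma 3.58.1 were alternatives. The GC correction subtracted a spline with 5 degrees of freedom. Gene lengths came from counts over RPKM, which gave 1 length in all libraries for 10924 of 10924 genes (relative tolerance 0.001), and positions and GC content from GENCODE annotation of the same build. Counting intervals are 95% exact binomial intervals.

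The members and lists were chosen with earlier results of these data known, among them medians that differed in sign between the library numbers. Values in every library are given for members that passed the filter with mean log2 CPM no lower than 5 and for the extreme ratios in each list, with low members added after their values were seen. Fold changes are given for the 3 most abundant members of each list, the extremes and the 1 member whose groups did not overlap. Up to 3 of the most abundant genes were named from other lists, and some of these are not reported here. The edgeR fits were tested on simulated data. The alternatives were other scalings, filters, tools, RPKM scales, the library number as a factor and leaving out each library.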

Additional observations from a re-analysis of the deposited data

How the results depend on the processing

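With group alone, 0 genes and 0 members were called under every scaling, filter and tool run and without each library in turn (0 to 0 for both), which cannot show stability. The library numbers are shared by the groups, but nothing in the labels pairs them. Deviations of same-numbered libraries from their group means correlated at 0.74 across genes. With the replicate block, edgeR called 87 genes (58 higher and 29 lower), and 17 with the block and a GC correction (8 and 9), with 0 members in both. The list medians in the block fit were -0.41 for sterol genes, -0.06 for fatty acid genes and -0.33 for regulators.

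Leaving out 1 library moved the list medians from -1.67 to 0.52 for the sterol genes, from -1.04 to 0.49 for the fatty acid genes and from -2.85 to 1.61 for the regulators. The sterol median was positive without proliferating 2 (0.52) or neuron 2 (0.17), and 16 of 26 members changed sign without proliferating 2. Over these 4 fits the log2 fold change ran from -1.62 to 1.04 for Hmgcs1, -1.06 to 0.37 for Sqle, -2.04 to 0.89 for Cyp51, -2.74 to 0.34 for Msmo1, -2.85 to 1.61 for Srebf2, -1.57 to 0.11 for Insig1, -0.20 to 1.16 for Stard4, -2.44 to 2.24 for Fasn, -1.21 to 0.16 for Scd2 and -1.31 to 0.40 for Acly. Acaca (0.33 to 0.98) and Elovl6 (0.10 to 2.34) stayed above 0, but not above the median of all genes in every fit. Without proliferating 1 that median was 0.39, against 0.33 for Acaca and 0.16 for Elovl6.

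On log2(RPKM + 0.1) and log2(RPKM + 1) the median of all genes was 0.81 and 0.34, the sterol median was 0.62 and 0.46, of the other sign, and the fatty acid median was 1.02 on the first, with 13 and 15 of 26 members changing sign. Relative to the median of all genes, 10 and 13 of the 26 changed sign. Values on these scales were 0.83 and 0.78 for Hmgcs1, 0.79 and 0.68 for Sqle, 0.53 and 0.46 for Cyp51, 0.46 and 0.21 for Srebf2, 0.32 and 0.29 for Insig1, 0.66 and 0.62 for Scd2, and 0.71 and 0.63 for Acly, each of the other sign. With limma voom, Fasn was at -0.21 and the fatty acid median at -0.19. The cause was not tested. Within the numbers, the medians of the 3 lists kept their signs without centring, with a prior count of 0.5, with a minimum of 10 counts over the pair and with a GC correction. Depth limits the ratios within number 2 of members with few counts there, such as Mvk, Pmvk, Mvd, Srebf1 and Scap.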

Other observations

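Fatty acid oxidation genes, which break down the products of the pathway, had signs opposite to the synthesis genes. Of 12 genes 9 were tested, 8 were below 0 within number 1 and 6 were above 0 within number 2. The medians were -0.70 and 0.42, with 0 called. Hadha, of the mitochondrial trifunctional protein, had 179, 134, 99.0 and 102 CPM in proliferating 1, proliferating 2, neuron 1 and neuron 2. Acadl, a long-chain dehydrogenase, had 111, 156, 42.3 and 205 CPM. The ratios of Acadl in numbers 1 and 2 were -1.39 and 0.42, and those of Hadha were -0.88 and -0.37.

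In the branch that leads from farnesyl diphosphate to dolichol, Nus1, a subunit of the prenyl transferase, had 19.5, 121, 66.8 and 162 CPM. It was higher in the neuron library within both numbers, with ratios of 1.66 and 0.44, a pattern of 27.4% of all tested genes. The ratios rested on 6 counts in proliferating 1, and on 66 and 78 counts in proliferating 2 and neuron 2. Of the 15 tested sterol genes, 0 were higher in both.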
